A study of Lobaria pulmonaria with 11 samples.

Results

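The early response of the fungal partner, the mycobiont, of the tree lungwort lichen Lobaria pulmonaria was followed by setting thalli irradiated with ultraviolet-B (UV-B) for 2 days against thalli sampled before irradiation. The members are the 6 libraries that the labels assign to day 2 and day 0, of 11 in the series, and every transcript in the mycobiont count table. Of the 15607 transcripts in that table, 963 were without a count in all 6 libraries. A filter on low counts left 12089 for testing, and 3518 were not tested. The tested transcripts held at least 99.9% of the mycobiont counts in each of the 6 libraries.

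The day 2 group (3 libraries) had received a cumulative dose of 28.8 kJ/m2, given in daily exposures of 80 min at 3 W/m2, or 14.4 kJ/m2 per day. The day 0 group (3 libraries) had received 0 kJ/m2. In both groups the material was wild thalli from aspen trunks that had been air dried, stored frozen, wetted again and then kept moist at 15 °C in a climate chamber with 12 h of light per day. Exposures took place at room temperature. Because day 0 holds the only thalli without irradiation, the UV-B dose, the time spent wet and the handling of each exposure cannot be told apart. The series' design calls the replicates biological, but the labels do not say whether each library came from a thallus of its own. The p-values therefore rest on the spread between libraries, which need not be that between thalli. For edgeR this spread was estimated from the libraries of every day in the series. The permutation tests used the day 2 and day 0 libraries alone.

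A lichen fungus forms the body of the thallus and encloses its photosynthetic partners, here a green alga and a cyanobacterium. It lives without roots or a cuticle, dries out and resumes metabolism whenever it is wetted. UV-B damages DNA mainly by joining neighbouring pyrimidine bases, and it gives rise to reactive oxygen species. Fungi are known to answer with photolyases and excision repair, which remove such lesions, with catalases, superoxide dismutases and chaperones, and with screening pigments. In Lobaria pulmonaria the pigments are melanins laid down in the upper cortex. Transcripts of the fungus are identified by numbers alone, with no names or functions given beside them. No transcript could therefore be assigned to any of these processes, the fungal identity of the counts could not be checked by marker genes, and 4 transcripts are named by ID.

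The 6 libraries held 8848573 to 17626099 mycobiont counts each, and 71.1% to 81.0% of the reads kept after trimming mapped to the fungal genome. The photobiont, the green alga, took 10.5% ± 2.35 of all counts of fungus and alga at day 2 and 12.2% ± 3.76 at day 0 (SD, n = 3 each; exact two-sided permutation p = 0.7, adjusted over 5 measures 0.7). In such bulk material, fewer cells of a partner and less RNA per cell cannot be told apart. With 3 libraries against 3, the 20 possible assignments give no p below 0.1.

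Fungal transcriptomes of different days lay farther apart, on average, than those of replicates. The distance between a pair of libraries was taken as the median absolute difference in log2(CPM + 0.5) over the tested transcripts, where CPM are counts per 1000000 after trimmed mean of M-values (TMM) scaling. Libraries of different days lay 0.516 apart on average (9 pairs, 0.389 to 0.609). Pairs within day 2 lay 0.365 apart (3 pairs, 0.270 to 0.424) and pairs within day 0 lay 0.308 apart (3 pairs, 0.251 to 0.341). The excess of 0.179 between days was the largest that any assignment of the 6 libraries gave, at the smallest p the design allows (one-sided exact permutation p = 0.1, adjusted 0.125). The ranges overlap in part, since day 2 replicate 2 and day 0 replicate 1 were only 0.389 apart while day 2 replicates 1 and 2 were 0.424 apart. Replicates of day 2 were somewhat less alike than those of day 0. The median SD of a transcript over replicates was 0.318 at day 2 and 0.267 at day 0 on the log2 scale, and 57.9% of the tested transcripts had the larger SD at day 2.

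The counts were gathered in fewer fungal transcripts in each day 2 library than in any day 0 library, though 3 libraries a day leave no room for a p under 0.05. The 100 transcripts with most counts held 23.9%, 20.1% and 22.6% of a library in day 2 replicates 1, 2 and 3, against 17.9%, 16.1% and 16.4% in day 0 replicates 1, 2 and 3. Every day 2 library lay above every day 0 library. The effective number of transcripts, computed as the exponential of Shannon's entropy over the shares of counts, falls as counts gather in fewer transcripts. It was 2946, 3591 and 3137 in the day 2 libraries and 4088, 4532 and 4403 in the day 0 libraries. In a draw of 8848573 counts, 13055, 13145 and 13062 transcripts would be detected in the day 2 libraries, against 13413, 13512 and 13708 in the day 0 libraries. Both measures were lower in each day 2 library than in any day 0 library. The differences of the means were 5.39 percentage points, -1116 and -457, and each reached the smallest p the design allows (exact two-sided permutation p = 0.1, adjusted 0.125). With only transcripts of at least 10 counts over the 6 libraries, the difference in transcripts detected was -227. The gathering of counts was not particular to day 2. In the 5 libraries of days 7 and 11 the effective number was 2738 to 3655, below every day 0 library. Their 100 transcripts with most counts held 19.5% to 26.1%, above every day 0 library.

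**Figure D1:**
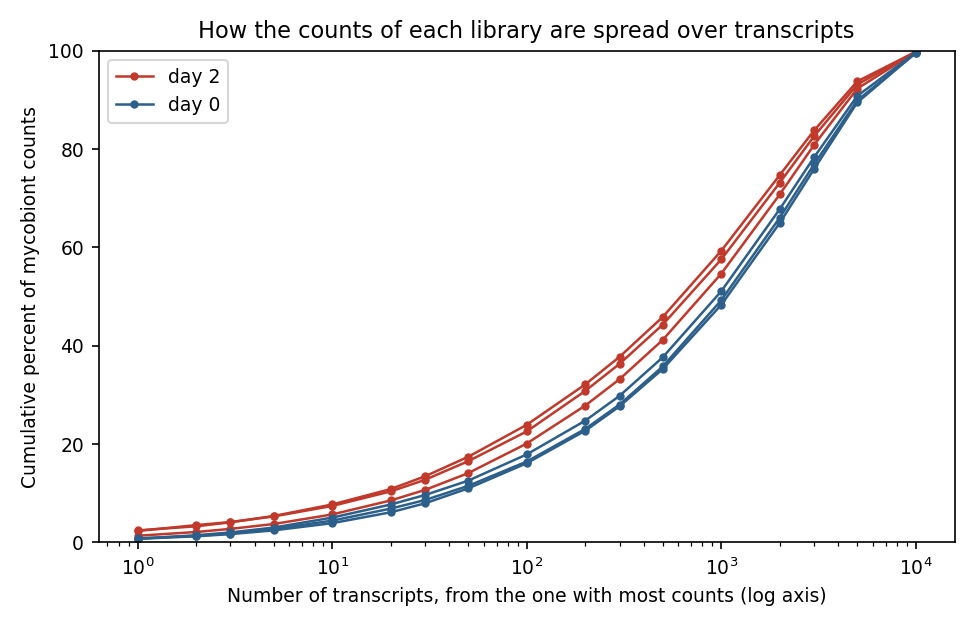
Cumulative percent of mycobiont counts against the number of transcripts, taken from the one with most counts (log axis), with 1 line per library of day 2 (red) and day 0 (blue). At 100 transcripts the day 2 lines lie between 20.1% and 23.9% and the day 0 lines between 16.1% and 17.9%.

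Of the 12089 tested transcripts, 1579 (13.1%) differed between day 2 and day 0 by the quasi-likelihood test of edgeR at an adjusted p under 0.05. Of these, 1039 (8.59%) were higher at day 2 and 540 (4.47%) were lower. The higher transcripts had a median log2 fold change of 1.06, with the central 90% between 0.58 and 3.72. The lower transcripts had a median of -1.26, with the central 90% between -2.52 and -0.64, and the median over all tested transcripts was -0.03. The tail of large rises was the longer one: rises of 4-fold or more numbered 183, of 8-fold or more 80 and of 16-fold or more 45, against 75, 13 and 4 falls of the same sizes. Among transcripts with a mean of 50 or more counts over the 6 libraries, there were 35 rises and 2 falls of 16-fold or more. With the called ones included, 3687 (30.5%) had an unadjusted p under 0.05.

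The number and the split of the calls depended on the libraries and on the scaling. Leaving out day 0 replicate 1, 2 or 3 gave 958, 593 or 713 calls, and leaving out day 2 replicate 3 gave 668, with rises in the majority each time. Under scaling by library totals the median over all transcripts moved to -0.45. Then 466 of 2679 calls, or 17.4%, were higher, while under TMM the share was 65.8%. With upper-quartile scaling the median was -0.23 and 38.2% of 1750 calls were higher. Rises and falls are therefore given relative to the bulk of the fungal transcripts.

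Called transcripts were well separated between the days, which the test that chose them favours. In 1038 of the 1039 higher transcripts all day 2 libraries lay above all day 0 libraries, and in 537 of the 540 lower ones all day 2 libraries lay below. Over all tested transcripts the libraries were separated in this way in 2262 (18.7%) upward and 2166 (17.9%) downward. The replicates of a called transcript mostly lay close together, which the same test favours. The 3 day 2 libraries were within 2-fold of each other in 901 (86.7%) of the higher and 480 (88.9%) of the lower transcripts. Of all tested transcripts, 75.8% were. For the 3 day 0 libraries this was found in 94.8% of the higher and 86.7% of the lower transcripts, and in 81.2% of all tested. A further 106 transcripts had a fitted change of at least 16-fold, 63 upward and 43 downward, without being called. In 88 of these the libraries of the 2 days overlapped.

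Whether a transcript was called higher or lower went with its level. The tested transcripts were divided into 4 groups of nearly equal size by their mean CPM over the 6 libraries, a scale that is not corrected for transcript length. In the top group (80.4 CPM or more) 20.3% were called higher and 2.35% lower, around a median log2 change of 0.29. In the next groups down, 9.83% and 2.98% were called higher and 4.30% and 6.68% lower. In the bottom group (5.73 CPM or less) 1.26% were called higher and 4.53% lower, with a median of -0.50. With library totals the medians of the top and bottom groups were -0.13 and -0.93, and 9.76% of the top group were called higher and 12.1% lower, so the majority in the top group turns with the scaling while the order of the medians stays. Precision differed too, with a median standard error of 0.21 in the top and 0.55 in the bottom group, so smaller changes could be called in the top group.

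**Figure D2:**
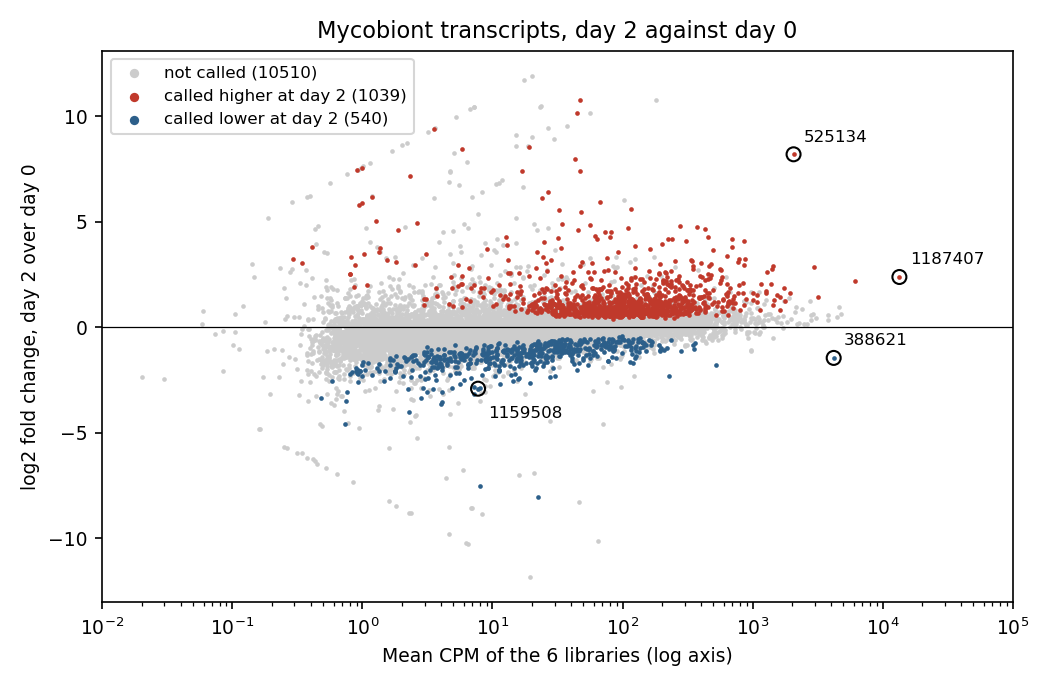
The log2 fold change of each tested transcript, day 2 over day 0, against its mean CPM over the 6 libraries (log axis). Red marks 1039 transcripts called higher, blue 540 called lower and grey those not called, and rings mark the named transcripts. The red points reach past 10 on the log2 scale and lie mostly to the right, and the blue points lie mostly to the left.

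The transcripts called higher under TMM held a larger part of the mycobiont counts at day 2. Their share of the deposited counts, which amounts to scaling by library totals, was 27.2%, 26.3% and 31.1% in the day 2 libraries. In the day 0 libraries it was 14.3%, 12.9% and 13.5%. The transcripts called lower held 1.38%, 1.58% and 1.19% of the day 2 libraries, against 3.58%, 4.11% and 4.24% of the day 0 libraries. These shares describe transcripts chosen by the same contrast and are no test. The gain was spread unevenly. Of the mean gain of 14.6 percentage points, the transcript with the largest gain supplied 1.52, the first 10 together 4.01 and the first 50 together 7.38. The lower transcripts fell by 2.59 points in all. Transcripts that were not called, the remainder, held 71.4%, 72.1% and 67.7% of the day 2 libraries and 82.1%, 83.0% and 82.3% of the day 0 libraries.

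The set of transcripts with the most counts changed in part. Of the 100 with the largest mean share of counts at day 2, 67 were also among the 100 at day 0. In the day 2 list, which the day 2 values themselves chose, calls numbered 39 upward and 1 downward. The day 0 list held 13 transcripts called higher at day 2 and 2 called lower. Of all tested transcripts 8.59% were higher and 4.47% lower, and in the top level group 20.3% and 2.35%, so the 13 of 100 lie between the shares of all transcripts and of the top group. The day 0 list was chosen by day 0 values, which works against calls upward, so these shares are not like for like. Of the day 2 list, 8 had ranked beyond 1000 at day 0. Among the first 10 at day 2, 6 were among the first 10 at day 0 and 5 were called higher. Apart from the named transcripts in this list, the second had 9312, 7721 and 13246 CPM in the day 2 libraries, against 3467, 1866 and 1239 CPM in the day 0 libraries (log2 change 2.20, SE 0.55, edgeR adjusted p = 0.0281). The fifth had 4955, 4462 and 6358 CPM in the day 2 libraries, against 728, 575 and 861 CPM in the day 0 libraries (log2 change 2.87, SE 0.25, adjusted p = 0.000380). The seventh had 3164, 4567 and 6292 CPM in the day 2 libraries, against 2245, 1692 and 1197 CPM in the day 0 libraries (log2 change 1.45, SE 0.40, adjusted p = 0.0408). None of the 3 overlapped between the days, and the fifth had ranked 90 at day 0. All 3 were picked by their counts at day 2, which favours a higher day 2, so their p-values are descriptions. On the later days the fifth lay between 1742 and 1958 CPM in every library, below day 2 by 1.47 on the log2 scale (SE 0.21, adjusted p = 0.00273), whereas the seventh had 3268 to 7788 CPM and no difference from day 2 was detected (adjusted p = 0.991).

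Transcript 525134 had the largest rise among the 999 higher transcripts that had at least 10 counts in each of the 6 libraries and no overlap between the days. Its level was 3558, 3869 and 4933 CPM in the 3 day 2 libraries, against 20.7, 12.5 and 8.94 CPM in the 3 day 0 libraries. The means were 4120 ± 721 CPM at day 2 and 14.0 ± 6.04 CPM at day 0 (SD, n = 3 each), a ratio of 294. The day 2 libraries lay within 1 narrow range far above all those of day 0. By edgeR it was higher by 8.19 on the log2 scale (SE 1.13, adjusted p = 0.00310). In counts per transcript it ranked 10 at day 2 and 7498 at day 0. Later the libraries spread out: it had 61.4 and 582 CPM at day 7 and 435, 3196 and 956 CPM at day 11. All 5 later libraries lay above day 0 and below day 2. Day 2 was higher than the mean of days 7 and 11 by 2.55 on the log2 scale (SE 0.74, edgeR adjusted p = 0.0474). Transcript 525134 was picked by its rise at day 2, which favours a higher day 2, so this p-value is a description. The day 2 call of 525134 was kept under all 20 alternatives.

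Transcript 1187407 had the largest gain in mean level. It had 28102, 13872 and 25831 CPM in the day 2 libraries, against 6401, 2957 and 3649 CPM in the day 0 libraries, or on average 22602 ± 7645 CPM at day 2 and 4335 ± 1822 CPM at day 0 (SD, n = 3 each). The groups did not overlap, although the lowest day 2 library was a little over 2-fold above the highest day 0 library. This single transcript made up 2.05% of the mycobiont counts at day 2 and 0.526% at day 0, and by counts it ranked 1 at day 2 and 2 at day 0. The fitted rise of 1187407 was 2.38 on the log2 scale (SE 0.54, edgeR adjusted p = 0.0206). It missed the threshold when day 0 replicate 2 (adjusted p = 0.0885), day 0 replicate 3 (0.0764) or day 2 replicate 3 (0.0613) was left out, within a range of 9.59e-06 to 0.0885 over the alternatives. It had 12112 and 5149 CPM at day 7 and 17727, 28470 and 11133 CPM at day 11, and no difference between day 2 and these days was detected (log2 difference 0.82, SE 0.45, adjusted p = 0.264).

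Transcript 388621 was the counterpart among the falls, with the largest loss in mean level of 471 lower transcripts that met the same conditions. It had 2892, 1986 and 1883 CPM in the day 2 libraries, against 6171, 5852 and 6460 CPM in the day 0 libraries. The means were 2254 ± 555 CPM at day 2 and 6161 ± 304 CPM at day 0 (SD, n = 3 each). It held a mean share of 0.206% of the counts at day 2, ranking 33, and of 0.757% at day 0, ranking 1, although in day 0 replicate 1 alone transcript 1187407 had more counts (94618, against 91212). Its replicates lay close together on both days, and the days did not overlap. The fitted log2 change of 388621 was -1.45 (SE 0.37, edgeR adjusted p = 0.0297). On the later days it was lower again, with 611 and 370 CPM at day 7 and 335, 599 and 869 CPM at day 11, and day 2 exceeded their mean by 2.05 on the log2 scale (SE 0.32, adjusted p = 0.00404). The day 2 call of 388621 was lost without any single day 0 library (adjusted p = 0.0611, 0.0692 and 0.0676), and without day 2 replicate 2 (0.0714) or 3 (0.109). With the replicate number as a block the call of 388621 was lost too (0.0599), within a range of 0.000564 to 0.109 over the alternatives. Its direction was the same in every one of these.

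Transcript 1159508 had the largest fold decrease under these conditions. Its level was 1.05, 2.66 and 1.66 CPM in the day 2 libraries, against 21.2, 3.41 and 16.4 CPM in the day 0 libraries. Day 0 replicate 2 was close to the day 2 libraries, and the other two day 0 libraries lay far above. The fitted log2 change of 1159508 was -2.91 (SE 0.63, edgeR adjusted p = 0.0173). It missed the threshold when day 0 replicate 3 (adjusted p = 0.0504), day 2 replicate 1 (0.0510) or day 2 replicate 3 (0.0669) was left out. It also did so with the 6 libraries alone (0.0519) and with the replicate number as a block (0.0505). The range over the alternatives was 8.55e-05 to 0.0669. The level of 1159508 stayed low at day 7 (3.07 and 2.49 CPM) and day 11 (2.91, 2.81 and 1.79 CPM).

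**Figure D3:**
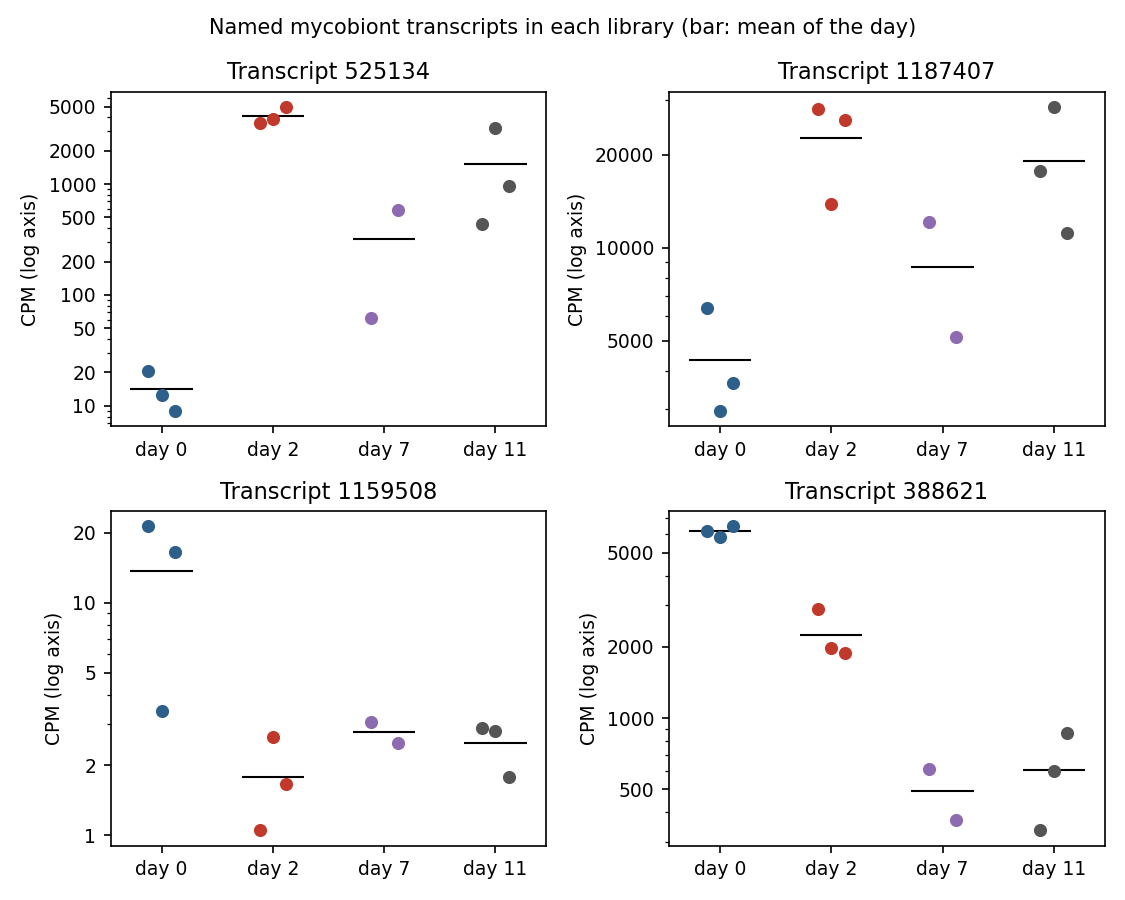
CPM (log axis) of the 4 named transcripts in each library of days 0, 2, 7 and 11, with a bar at the mean of each day. Transcript 525134 lies between 3558 and 4933 CPM at day 2 and at 20.7 CPM or less at day 0, and transcript 388621 lies between 1883 and 2892 CPM at day 2 and between 5852 and 6460 CPM at day 0.

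A small group of transcripts was nearly silent before irradiation and counted in every day 2 library. By a rule chosen after the data had been seen, at most 3 counts summed over the day 0 libraries and at least 10 in each day 2 library, there were 8 such transcripts of 15607 (0.0513%), and 0 with the days exchanged. Since the rule itself sets the days apart, these values are a description, with no test. The contrast between the directions depends on the rule: with at least 5 counts in each library in place of 10, there were 16 that appeared at day 2 and 11 with the days exchanged. The transcript with most counts had 1075, 1632 and 878 counts in the day 2 libraries, against 0, 2 and 0 counts in the day 0 libraries. The ratio of its summed shares was 1585, with a 95% interval from 438 to 13092 that covers counting error only. The next had 907, 1274 and 1111 counts at day 2, against 0, 2 and 1 at day 0, and a ratio of 970 (332 to 4707). Together these 2 dominated the group. The 3 transcripts with 0 counts in all day 0 libraries were at least 87.2-fold, 21.2-fold and 20.3-fold higher at day 2, when day 0 was set to a floor of 3 counts over the group.

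The same 8 transcripts divided the later libraries unevenly. Their summed counts were 2281, 3526 and 2218 in the day 2 libraries and 2, 5 and 1 in the day 0 libraries. At day 7 they were 12 in replicate 1 and 1301 in replicate 2, and at day 11 they were 12, 8 and 6. Of the 8, 7 had 10 or more counts in day 7 replicate 2 and 0 had as many in any other later library. The labels give nothing that day 7 replicate 2 has in common with the day 2 libraries alone.

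**Figure D4:**
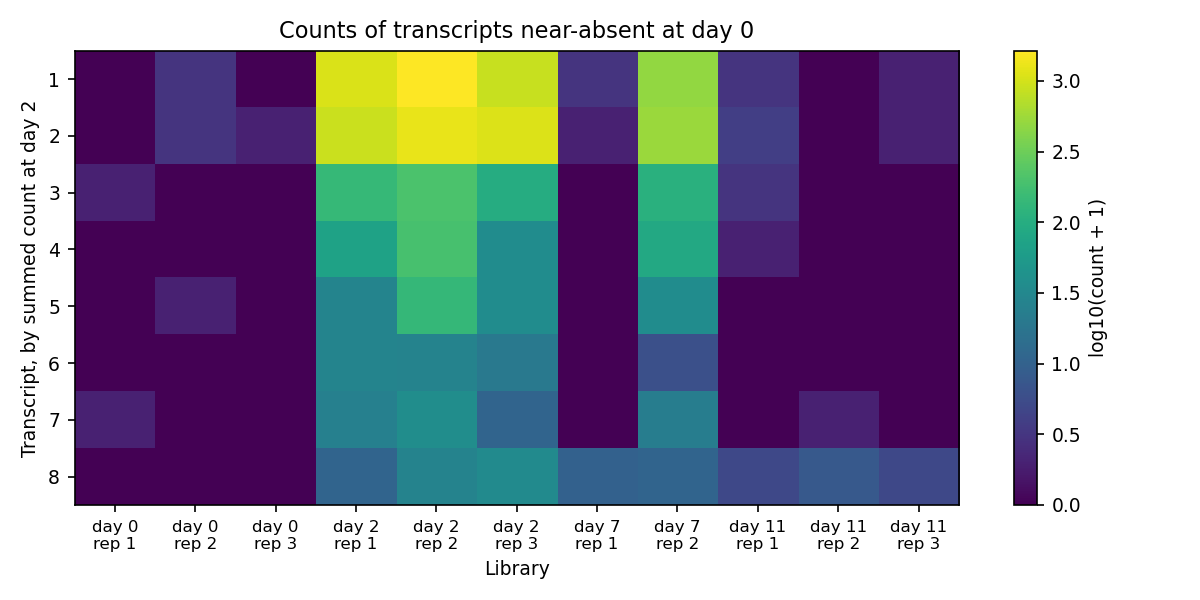
Counts, as log10(count + 1), of the 8 transcripts that were nearly silent at day 0, in rows ordered by their summed count at day 2, over the 11 libraries from day 0 to day 11. The 3 day 2 libraries and day 7 replicate 2 stand out, with 2218 to 3526 and 1301 summed counts, and the other 7 libraries have at most 12.

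The largest fitted falls were of another kind. The called transcript with the lowest log2 fold change, -8.04, had 3, 3 and 0 counts in the day 2 libraries, against 438, 1936 and 1 counts in the day 0 libraries. The next, at -7.50, had 0, 1 and 2 counts in the day 2 libraries, against 411, 382 and 0 counts in the day 0 libraries. Both were thus all but absent from day 0 replicate 3 as well, and their groups overlap. In the later libraries they had at most 2 counts.

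The transcripts called at day 2 are described here on the later days, with no test. They were chosen with the same day 0 libraries that the later days are set against, so part of a displacement of the same sign comes from the choice, and its size was not measured. The 1039 transcripts called higher had a median log2 fold change against day 0 of 1.06 at day 2, 0.72 at day 7 and 0.81 at day 11, and the 540 called lower had medians of -1.26 at day 2 and -1.12 at day 11, with quartiles of -1.71 and -0.56 at day 7. The medians over all tested transcripts were -0.03, -0.02 and -0.02. All 5 libraries of days 7 and 11 lay above all day 0 libraries in 767 of the 1039. In 408 of the 540, all 5 lay below all day 0 libraries. Over all tested transcripts these patterns were found in 2413 (20%) and 2250 (18.6%). Among the 45 called transcripts that were at least 16-fold higher at day 2, the 5 later libraries lay above all day 0 libraries in 34. The later libraries lay below all day 2 libraries in 16 of the 45 and in 314 of the 1039. Over all tested transcripts this was found in 1517 (12.5%). Both sets were chosen for high values at day 2, which favours later libraries below day 2.

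**Figure D5:**
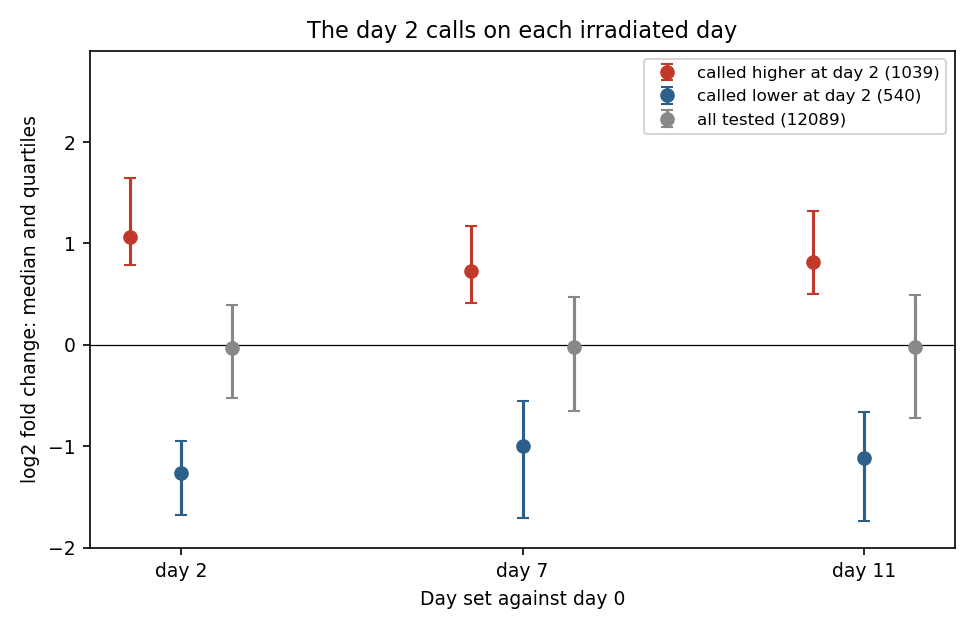
Median (point) and quartiles (bars) of the log2 fold change against day 0 at days 2, 7 and 11, for the transcripts called higher at day 2 (red), those called lower (blue) and all tested (grey). The red medians are 1.06, 0.72 and 0.81 and the blue medians -1.26 at day 2 and -1.12 at day 11, while the grey ones lie between -0.03 and -0.02.

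Day 2 was also set against the mean of days 7 and 11, in a contrast without day 0. There, 1772 of the 12089 tested transcripts (14.7%) differed, of which 1108 (9.17%) were higher at day 2 and 664 (5.49%) lower. A difference of 2-fold or more was found in 796 of the higher and 369 of the lower transcripts. The count was 992 without day 2 replicate 1, 1120 without day 2 replicate 3 and 1018 without day 7 replicate 2.

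In the same 6 libraries few transcripts of the green alga were called. Of its 9862 tested transcripts, 9 (0.0913%) were called by edgeR, all higher at day 2, and 1038 had an unadjusted p under 0.05. In the fungus, 3687 of 12089 tested transcripts had an unadjusted edgeR p under 0.05. The median absolute log2 fold change was 0.25 in the alga and 0.46 in the fungus. The alga had 1123638 to 2677845 counts in these libraries, fewer than the fungus in each. The median standard error of the alga was not larger, at 0.285 against 0.305 in the fungus. Whether the partners differed in their response was not tested.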

How the data were processed

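RNA of whole thalli was selected for polyadenylated transcripts and sequenced as directional 50 bp single-end libraries, per the labels' protocols. The authors deposited raw counts per transcript and library for the mycobiont and the photobiont, and counts of reads kept and mapped. Per the submitters' processing notes, edgeR, HISAT2, HTSeq 0.5.4, Trimmomatic 0.39 and FastQC 0.11.8 were used. The sources used here give no genome builds, gene models or strand setting, and overlapping or near-identical transcripts remain uncertain.

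The mycobiont counts of all 11 libraries were fitted by day with edgeR 4.0.16 in R 4.3.3 (TMM normalization, default expression filter, robust quasi-likelihood fit, which shares 1 estimate of the spread). Calls are at a Benjamini-Hochberg adjusted p under 0.05. The biological coefficient of variation was 0.401 and the median standard error 0.31. The standard error is the absolute log2 fold change divided by the root of the F statistic. The procedure was tested on simulated data. Library measures were compared by exact permutation tests with SciPy 1.17.1, adjusted over 5 measures. In each direction, 2 transcripts are named: of those called, with at least 10 counts in each of the 6 libraries and no overlap between days, the largest log2 fold change and the largest difference in mean CPM. Alternatives were other scalings, filters and fits, DESeq2 1.42.0, a replicate block and leaving out each library. The comparison, the rules and the tests were chosen with earlier results of these data known.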

Additional observations from a re-analysis of the deposited data

How the results depend on the processing

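Between 593 and 1518 mycobiont transcripts were called for day 2 against day 0 when 1 library was left out, 64.3% to 81.0% of them higher. Library totals gave 2679 calls (17.4% higher) and DESeq2 2557 (61.0% higher). Upper-quartile scaling gave 38.2% higher and no filter 69.3%. DESeq2 size factors, the stricter filter, the fit that was not robust and the 6 libraries alone kept the count within 1.5 times and rises in the majority. For day 2 against days 7 and 11 the count was 992 to 1704 without 1 library. That contrast cannot be made with the 6 libraries alone. Deviations of same-numbered libraries of days 2 and 0 correlated at -0.0833, 0.221 and -0.0369, and those of libraries with unlike numbers at -0.178 to 0.201. With 3 libraries a day these values cannot decide whether the numbers pair the samples. With the replicate block, 1055 transcripts were called, 71.6% higher, and 1163 for day 2 against days 7 and 11, and the adjusted p was 0.0599 for transcript 388621 and 0.0505 for 1159508.

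Without day 0 replicate 3 the difference in photobiont share was 0.148 percentage points in place of -1.69 (-3.61 to 0.148 over the libraries left out). With transcripts of at least 10 counts in all, the difference in transcripts detected was -227. The 10 and 1000 transcripts with most counts gained 2.48 and 7.62 percentage points. The excess distance between days was 0.266 with library totals. The transcripts nearly silent at day 0 numbered 3 with 0 counts allowed at day 0, and 16 and 4 with at least 5 and 30 counts required at day 2. The causes of these shifts were not tested. Library measures without 1 library are values with no test. With 3 libraries a day, changes of transcripts with few counts were measured with the least precision.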

Other observations

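Some of the transcripts with the most fungal counts at day 2 were called against the later days but not against day 0. The third by mean share of counts at day 2 had 8152, 5467 and 4887 CPM in the day 2 libraries, against 4395, 1975 and 3024 CPM in the day 0 libraries, and was not called (log2 fold change 0.98, SE 0.64, edgeR adjusted p = 0.333). At day 7 it had 534 and 1165 CPM and at day 11 it had 162, 233 and 958 CPM, so that day 2 exceeded the later days by 3.32 on the log2 scale (SE 0.59, adjusted p = 0.00665). The sixth had 9569, 2574 and 3503 CPM at day 2, against 4913, 2278 and 4137 CPM at day 0 (adjusted p = 0.612), and 237 to 784 CPM on the later days, a difference of 3.28 between day 2 and these days (SE 0.51, adjusted p = 0.00414). Both were picked by their counts at day 2 and after their values had been seen. This favours a higher day 2, so their p-values are descriptions. Of the 100 transcripts with the largest share of counts at day 0, 33 were higher and 4 lower at day 2 than on days 7 and 11. Over all tested transcripts these shares were 9.17% and 5.49%. The shares in the top level group were not computed for that contrast, so whether the 33 exceed them was not tested. In the contrast with day 0, 13 of the 100 were higher and 2 lower at day 2. There the shares were 8.59% and 4.47% of all tested transcripts, and 20.3% and 2.35% of the top level group. In that contrast the choice of the 100 by day 0 values works against calls upward.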
